A study of Mus musculus with 9 samples.

Results

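A set of 10 marker genes of macrophages and granulocytes was followed across all arrays of a study of Lmo2-driven T cell leukaemia in mice. The members are Lyz1, Lyz2, Mpo, Mpeg1, S100a8, S100a9, Csf1r, C1qb, C1qc and Adgre1, and they were chosen by name, through the symbol that the platform annotation gives to each probe. This gave 10 genes of the 19057 with a probe of their own on the array, read by 21 probes. Of the 21 probes, 13 were kept, because at least 3 of the 9 arrays detected them (detection p-value under 0.05), and 8 were not. Each of the 10 genes had a kept probe and so was among the 10072 genes tested.

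The arrays were Illumina MouseWG-6 v2.0 BeadChips, on which beads coated with gene-specific probes bind labelled RNA, and about 300 ng of total RNA went onto each. Wild-type thymus was hybridised to 3 arrays, thymus labelled as Lmo2 transgenic to 3 arrays, and 3 cell lines, numbered 3, 175 and 261, to 1 array each. All samples are C57BL/6, and the lines came from T-cell leukaemias of CD2-Lmo2 mice, in which CD2 control sequences, active in T cells, drive the transgene. No age is given, and the labels state neither whether the thymus samples of a group came from separate animals nor whether cells were sorted, so the p-values measure the spread between these samples only. In RNA taken from many cells together, fewer macrophages or granulocytes and less RNA per cell cannot be told apart.

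Macrophages and granulocytes are phagocytes that arise from bone marrow progenitors. In the thymus, resident macrophages clear the many thymocytes that die during selection, while granulocytes are usually scarce and also arrive with blood. The members cover different sides of these cells. Lysozymes cut bacterial cell walls, Mpo is the myeloperoxidase of granulocyte granules, and Mpeg1 encodes the pore-forming protein perforin-2 of phagocytes. S100a8 and S100a9 form calprotectin, a major protein of the neutrophil cytosol. Csf1r is the receptor for macrophage growth factor CSF1, C1qb and C1qc are chains of the complement starter C1q, which macrophages secrete, and Adgre1 encodes the surface antigen F4/80 of mouse macrophages.

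The arrays had median raw intensities of 118.5 to 161.2 and detected 35.0% to 43.0% of probes, with the lines lowest in both. All 10 measured T cell and thymocyte markers were detected on all 3 wild-type arrays and 7 of them on all 3 line arrays. Lmo2 did not follow the labels. It read 7.95, 8.0 and 8.21 (log2 intensity) on the wild-type arrays and 6.95, 6.22 and 5.42 on the labelled transgenic arrays, and it was not detected on the lines. It fell by 1.86 ± 0.36 (SE) log2 units between the thymus groups (limma, adjusted p = 0.0325), and the group is therefore named here as labelled transgenic. That call was lost under 6 of 16 alternative settings, at differences of the same sign. Whether the probe reads the transgene, and whether labels were exchanged between the thymus groups, was not tested, and an exchange would turn the direction of every comparison between them. Labelled transgenic arrays 1 and 2 also stood apart in Xist, the RNA that silences an X chromosome in female cells, at 12.66 and 11.37 against 4.49 on labelled transgenic array 3 and 4.38 to 4.47 on the wild-type arrays. Eif2s3y, a gene of the Y chromosome, read 9.44 to 10.12 on the wild-type arrays and labelled transgenic array 3 and was not detected on labelled transgenic arrays 1 and 2. Member differences between the thymus groups are given below with array 3 alone as well, a setting in which that single array was assumed to vary like the wild-type arrays.

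Between the thymus groups, labelled transgenic against wild type, the 10 markers did not move together. Mpo and Mpeg1 fell, by 5.43-fold and 4.43-fold, and the Mpo fold is set against a mean in which only 1 of 3 labelled transgenic arrays was above background. Without background correction the folds were 2.02 and 2.53, and with an offset of 50 they were 3.12 and 3.50, with both calls kept. The C1q chains and Adgre1 had higher means on the labelled transgenic arrays and did not pass the test. The lysozymes and the S100 genes spread so widely within a thymus group that their means differed by less than that spread. In limma, with p-values adjusted over all genes tested and a call at adjusted p under 0.05, 2 of the 10 members were called lower and 0 higher. Of all genes tested, 4.68% were called, 2.38% lower and 2.29% higher. The groups did not overlap for 4 members, against 22.3% of all genes tested. The median difference was -0.18 over the members and 0.0047 over all genes.

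**Figure D1:**
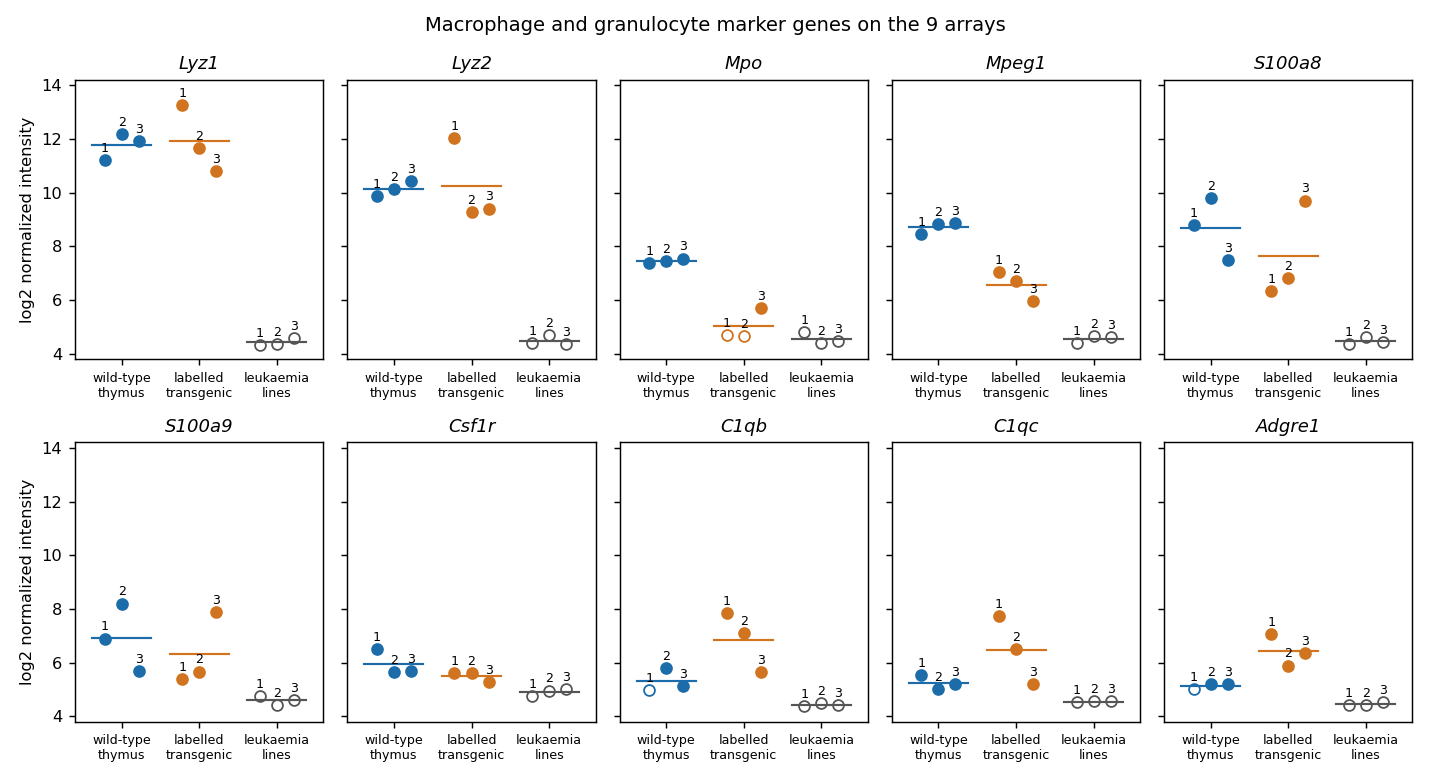
Log2 normalized intensity of the 10 marker genes (1 panel each) on the 9 arrays. Numbers are replicate numbers, with lines 3, 175 and 261 as 1, 2 and 3; filled circles are detected (detection p under 0.05), open circles are not, and horizontal bars are group means. On the lines every circle is open and lies between 4.32 and 5.02.

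Mpo, the granule peroxidase made mainly at the promyelocyte stage, read 7.37, 7.47 and 7.54 on the wild-type arrays and 4.69, 4.66 and 5.71 on the labelled transgenic arrays (log2 intensity). The groups did not overlap, and of the labelled transgenic arrays only array 3 was detected. The difference was -2.44 ± 0.30 (SE; 95% interval -3.14 to -1.74; limma adjusted p = 0.00530), and -1.75 with array 3 alone (0.00550). The second kept Mpo probe was detected on all 3 wild-type arrays, at 6.29, 5.97 and 5.57, and on 0 labelled transgenic arrays. Its labelled transgenic mean was lower by a difference of -1.22, while the remaining Mpo probes, which did not pass the detection filter, differed by -0.41 and -0.24.

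Mpeg1, the perforin-2 gene, read 8.45, 8.83 and 8.86 on the wild-type arrays and 7.03, 6.69 and 5.97 on the labelled transgenic arrays. All 6 arrays detected it, and every labelled transgenic value lay below every wild-type value. It fell by 2.15 ± 0.29 (SE; 95% interval -2.84 to -1.46; limma adjusted p = 0.00807), and with array 3 alone the difference was -2.74 (0.00153). The call was lost without wild-type array 2 (adjusted p = 0.0587) or wild-type array 3 (0.0522), at nearly the same difference (-2.09 and -2.08).

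Csf1r, the CSF1 receptor, was low on all thymus arrays. It read 6.50, 5.64 and 5.69 in wild type and 5.62, 5.60 and 5.27 on the labelled transgenic arrays. The groups did not overlap, but the difference of -0.44 ± 0.27 (95% interval -1.08 to 0.19) was smaller than the wild-type SD of 0.48 and did not pass the test (adjusted p = 0.518). With array 3 alone it was -0.67 (adjusted p = 0.466).

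C1qb read 4.99, 5.81 and 5.12 on the wild-type arrays, the first of them not detected, and 7.85, 7.09 and 5.64 on the labelled transgenic arrays. C1qc read 5.53, 5.01 and 5.22 in wild type and 7.74, 6.51 and 5.19 on the labelled transgenic arrays. In both genes labelled transgenic arrays 1 and 2, the arrays with Xist, lay above every wild-type array, and array 3 lay among the wild-type values. The differences were 1.55 ± 0.53 for C1qb (95% interval 0.30 to 2.80; adjusted p = 0.197) and 1.23 ± 0.57 for C1qc (-0.11 to 2.57; adjusted p = 0.361). Without labelled transgenic array 3 they were 2.16 and 1.88 and passed (adjusted p = 0.0202 and 0.0495). With array 3 as the only labelled transgenic array they were 0.33 and -0.056 and did not (adjusted p = 0.768 and 0.963). The part of Xist or of the sex of the animals in these differences was not tested.

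Adgre1, the F4/80 antigen, read 5.0, 5.20 and 5.20 on the wild-type arrays, the first not detected, and 7.07, 5.89 and 6.36 on the labelled transgenic arrays. Every labelled transgenic array lay above every wild-type array, array 3 included. The difference of 1.31 ± 0.30 (95% interval 0.61 to 2.01) narrowly missed the threshold (adjusted p = 0.0577). It passed under 4 of 16 alternative settings and missed under 12, among them no background correction (0.46, adjusted p = 0.165), an offset of 50 (0.82, 0.0962) and each wild-type array left out (0.185 to 0.194). The second kept Adgre1 probe was detected on all 3 labelled transgenic arrays, at 5.96, 5.86 and 5.57, and on 0 wild-type arrays, where it read 4.73 to 4.90. With the mean of both kept probes the difference was 1.14 and passed (adjusted p = 0.0271), and with labelled transgenic array 3 alone it was 1.23 (adjusted p = 0.0263). The third Adgre1 probe was detected on 0 arrays.

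Lyz1 and Lyz2 encode near-identical lysozymes, P and M, of which Lyz2 is the usual macrophage and granulocyte form. Lyz1 read 11.21, 12.17 and 11.91 on the wild-type arrays and 13.25, 11.66 and 10.80 on the labelled transgenic arrays. Lyz2 read 9.85, 10.14 and 10.43 in wild type and 12.02, 9.27 and 9.40 on the labelled transgenic arrays. For both genes labelled transgenic array 1 was the highest thymus array, array 3 lay below every wild-type array, and the groups overlapped. The differences were 0.14 ± 0.59 for Lyz1 (95% interval -1.24 to 1.52; adjusted p = 0.947) and 0.09 ± 0.69 for Lyz2 (-1.52 to 1.69; adjusted p = 0.973). Their sign turned when single arrays were left out: without labelled transgenic array 1 they were -0.53 and -0.80, and without wild-type array 1 they were -0.14 and -0.05. With labelled transgenic array 3 alone they were -0.97 and -0.74, and none of these was called.

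The probes of a lysozyme gene differed in level and detection. The second kept Lyz2 probe gave a difference near that of the used probe, 0.025 against 0.089, with labelled transgenic array 1 highest again (9.70). The remaining Lyz2 probe was detected on 0 arrays. The 2 other Lyz1 probes were detected on 0 wild-type arrays. On labelled transgenic array 1 they read 6.67 and 6.59, against wild-type values of 4.49 to 4.79. The second of them was also detected on labelled transgenic array 2, at 5.59. Probe sequences were not used here, so whether each probe reads Lyz1, Lyz2 or both is uncertain.

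S100a8 read 8.79, 9.79 and 7.48 on the wild-type arrays and 6.34, 6.83 and 9.70 on the labelled transgenic arrays. S100a9 read 6.90, 8.20 and 5.69 in wild type and 5.39, 5.67 and 7.88 on the labelled transgenic arrays. Both genes were high on wild-type array 2 and labelled transgenic array 3, and both were lowest on labelled transgenic arrays 1 and 2, where Xist was read. The groups overlapped, with differences of -1.06 ± 0.93 for S100a8 (95% interval -3.23 to 1.10; adjusted p = 0.681) and -0.61 ± 0.80 for S100a9 (-2.49 to 1.26; adjusted p = 0.805). Without labelled transgenic array 3 the differences were -2.10 and -1.40, and with that array alone they were 1.02 and 0.95, so array 3 ran against the other labelled transgenic arrays. None of these was called.

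**Figure D2:**
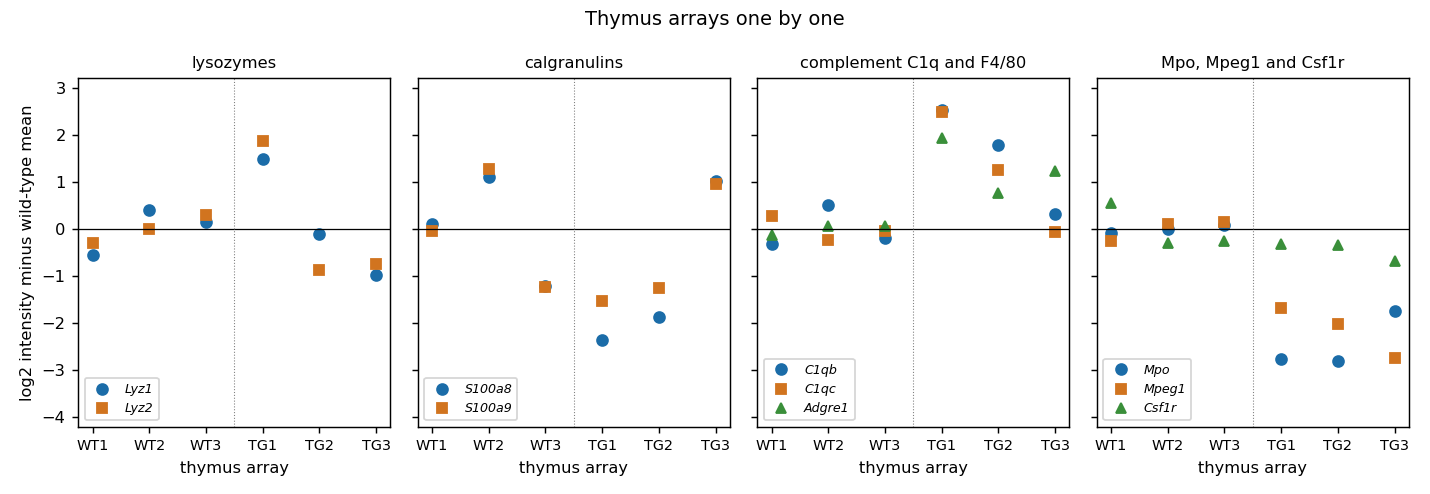
Log2 intensity of each marker on each of the 6 thymus arrays, less the gene's mean over the 3 wild-type arrays, with WT for wild-type arrays and TG for labelled transgenic arrays and the genes grouped by panel. The lysozymes are highest on TG1, the S100 genes (calgranulins) on WT2 and TG3, the C1q chains on TG1 and TG2, and Mpo and Mpeg1 are low on all 3 TG arrays.

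Over the 6 thymus arrays the closest profiles were those of neighbouring genes. For each of the 45 pairs of members, each gene's profile was centred on its own mean, and the root mean square difference of the log2 values was taken. It was smallest for S100a8 with S100a9 (0.36), then for Lyz1 with Lyz2 (0.42) and C1qb with C1qc (0.45), and the fourth pair was C1qb with Adgre1 (0.63). The first 3 pairs are gene neighbours in the RefSeq annotation of mouse assembly GRCm38.p6. These values describe 6 arrays and carry no test.

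Because the profiles of these neighbours lay close, their promoters are shown, for the 6 genes of the 3 pairs. Whether each lysozyme probe reads Lyz1, Lyz2 or both is uncertain, so that pair's closeness may not be that of separate genes. RefSeq promoter windows in assembly GRCm38.p6 were matched for 8 of the 10 members, and each window printed here holds 280 bases, from 250 before the annotated start to 30 after it, on the gene's own strand. In the lysozyme pair, capitals mark the longest identical run, 80 bases that span the start.
Lyz1, chr10:117292839-117293118, minus strand: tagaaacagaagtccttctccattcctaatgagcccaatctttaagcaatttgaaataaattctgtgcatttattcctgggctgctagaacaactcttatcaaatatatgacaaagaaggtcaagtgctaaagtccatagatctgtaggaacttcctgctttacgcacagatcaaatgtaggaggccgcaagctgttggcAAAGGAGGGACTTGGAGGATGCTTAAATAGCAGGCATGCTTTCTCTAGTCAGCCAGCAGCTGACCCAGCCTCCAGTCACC
Lyz2, chr10:117282243-117282522, minus strand: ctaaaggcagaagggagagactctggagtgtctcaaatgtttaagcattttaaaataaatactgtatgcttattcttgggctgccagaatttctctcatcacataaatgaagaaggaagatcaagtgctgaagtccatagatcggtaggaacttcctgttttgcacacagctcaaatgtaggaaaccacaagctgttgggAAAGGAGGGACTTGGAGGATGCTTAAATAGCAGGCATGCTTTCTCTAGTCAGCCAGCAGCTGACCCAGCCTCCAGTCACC
Compared position by position, 182 of the 280 bases (65%) were identical, and 96 of the last 100. This is a description of the windows and says nothing of how the genes are driven.

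In the C1q and S100 windows, capitals mark GAGGAA or its reverse complement TTCCTC, the core letters of sites bound by the myeloid factor PU.1, and TATAAA or TTTATA, the core promoter element called the TATA box.
C1qb, chr4:136886171-136886450, minus strand: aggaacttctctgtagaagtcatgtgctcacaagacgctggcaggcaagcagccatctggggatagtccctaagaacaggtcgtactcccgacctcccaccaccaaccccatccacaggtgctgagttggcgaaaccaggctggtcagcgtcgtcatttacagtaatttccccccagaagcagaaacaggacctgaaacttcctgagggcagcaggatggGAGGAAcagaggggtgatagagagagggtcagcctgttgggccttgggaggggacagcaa
C1qc, chr4:136892885-136893164, minus strand: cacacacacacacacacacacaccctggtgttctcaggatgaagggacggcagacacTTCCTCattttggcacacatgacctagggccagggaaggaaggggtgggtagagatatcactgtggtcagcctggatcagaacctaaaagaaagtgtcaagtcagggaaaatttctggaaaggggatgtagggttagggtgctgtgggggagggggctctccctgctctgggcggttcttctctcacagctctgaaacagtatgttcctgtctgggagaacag
S100a8, chr3:90668821-90669100, plus strand: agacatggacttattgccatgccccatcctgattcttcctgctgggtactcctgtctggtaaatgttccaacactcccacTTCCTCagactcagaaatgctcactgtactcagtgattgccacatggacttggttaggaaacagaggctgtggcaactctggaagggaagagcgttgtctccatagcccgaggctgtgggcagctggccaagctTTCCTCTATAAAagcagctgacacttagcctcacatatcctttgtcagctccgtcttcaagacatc
S100a9, chr3:90695692-90695971, minus strand: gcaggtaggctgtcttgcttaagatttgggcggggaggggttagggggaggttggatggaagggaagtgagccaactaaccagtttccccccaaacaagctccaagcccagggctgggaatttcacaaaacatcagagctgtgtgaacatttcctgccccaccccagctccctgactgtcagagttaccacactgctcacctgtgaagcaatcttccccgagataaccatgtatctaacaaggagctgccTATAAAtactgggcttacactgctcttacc
C1qb and C1qc were identical at 23.2% of positions and S100a8 and S100a9 at 25.4%, with no run longer than 4 bases in either pair. GAGGAA or its reverse began 30 bases before the start in C1qb, 193 before it in C1qc, and 170 and 36 before it in S100a8. TATAAA began 30 bases before the start in S100a8, directly after the nearer TTCCTC and without overlap, and at the annotated start in S100a9. The lysozyme windows held neither motif. Among 32851 RefSeq promoter windows of the same length, 26% held GAGGAA or its reverse and 13.1% held TATAAA or its reverse, so each match is one that many promoters share.

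The second comparison set the lines against wild-type thymus and the third set them against labelled transgenic thymus. In the lines all 10 markers were at background. None of the 21 probes was detected on any line array, and the used probes read 4.32 to 5.02 there, while the lowest detected probe of those arrays read 5.32 to 5.33. The nearest to detection was an Mpo probe outside the filter, at 5.32 on line 261, with a detection p-value of 0.05128. The lines differed from each other by at most 0.41 log2 units for the used probe of any member, and by at most 0.56 over all 21 probes. In contrast, 56 of the 60 thymus values of the used probes were detected. Since every member passed the detection filter through thymus arrays alone, the counts below describe these genes and are no evidence about myeloid genes in general.

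Against wild-type thymus, 10 of 10 members were called lower in the lines. Of all genes tested, 24.5% were called, 12.1% higher and 12.4% lower, 46.2% had groups that did not overlap, as all 10 members did, and 6.07% were undetected on every line array while detected on all 3 wild-type arrays. The median difference was -2.63 over the members, or -1.87 with bounds in place of fitted values, and 0.083 over all genes. Because a level at background is only an upper limit, the folds are lower bounds, set against the lowest signal detected on each line array. Lyz1 fell at least 86.8-fold and Lyz2 at least 28.1-fold (limma adjusted p = 1.43e-05 for both). Mpeg1 fell at least 10.5-fold (3.06e-05), S100a8 at least 10.3-fold (0.00281), Mpo at least 4.39-fold (0.000118), S100a9 at least 3.04-fold (0.0304) and Csf1r at least 1.53-fold (0.0367). These bounds depend on the background correction and the offset, both of which set the level of the floor. Without background correction they were 23.0 for Lyz1, 8.04 for Lyz2, 3.47 for Mpeg1, 3.55 for S100a8, 1.89 for Mpo and 1.63 for S100a9, and with an offset of 50 the bound was 47.5 for Lyz1 and 15.7 for Lyz2. Without wild-type array 3 the bounds for S100a8 and S100a9 were 15.6 and 4.67, and without wild-type array 2 that for S100a9 was 1.96.

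The remaining 3 members were already close to background in wild-type thymus, so no bound on the fold could be set for them. Their fitted differences were -0.88 ± 0.25 for C1qb, -0.70 ± 0.20 for C1qc and -0.67 ± 0.17 for Adgre1 (adjusted p = 0.0453, 0.0431 and 0.0304). Lyz1, Lyz2, Mpo, Mpeg1 and S100a8 kept their calls under all 15 alternative settings tried. The calls of the other 5 genes were each lost under 8 to 11 of the 15. Without line 175, or without wild-type array 2, 5 members were called. Of the 10072 genes tested, 928 rose and 1017 fell without line 175, and 446 rose and 714 fell without wild-type array 2.

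Against labelled transgenic thymus, 6 of 10 members were called lower in the lines. Of all genes tested 15.7% were called in this comparison, 7.23% higher and 8.45% lower, 42.4% had groups that did not overlap, as 9 members did, and 4.35% were undetected on every line array while detected on all 3 labelled transgenic arrays. This comparison shares the line arrays with the preceding one, so the pair of results is not independent. Lyz1 fell at least 95.6-fold (adjusted p = 0.00112) and Lyz2 at least 29.9-fold (0.00546). C1qb fell at least 2.89-fold (0.0289), Mpeg1 at least 2.36-fold (0.0113), Adgre1 at least 2.17-fold (0.0128) and S100a8 at least 4.91-fold (0.0469). Single arrays moved some of these bounds. Without labelled transgenic array 1 they were 59.9 for Lyz1, 16.1 for Lyz2 and 7.67 for S100a8, and without labelled transgenic array 3 they were 2.39 for S100a8 and 4.41 for C1qb. Without background correction they were 25.5 for Lyz1, 8.71 for Lyz2, 2.26 for S100a8, 1.57 for C1qb, 1.37 for Mpeg1 and 1.32 for Adgre1. The lower bound for Mpeg1 was smaller here than against wild type, where the gene was higher.

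The other 4 members did not pass. C1qc differed by -1.93 ± 0.59 (95% interval -3.34 to -0.52; adjusted p = 0.0699), S100a9 by -1.72 ± 0.64 (-3.23 to -0.21; 0.108) and Csf1r by -0.58 ± 0.22 (-1.09 to -0.070; 0.108). For those 3 genes every line value lay below every labelled transgenic value. Mpo differed by -0.48 ± 0.34 (-1.28 to 0.33; 0.35), and its groups overlapped, since it was detected on 1 labelled transgenic array only. The median difference was -1.99 over the members, or -1.20 with bounds, and 0.057 over all genes. S100a8 and C1qb each lost the call under 9 of the 15 alternative settings, and C1qc gained it under 2, among them without labelled transgenic array 3 (adjusted p = 0.0235).

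**Figure D3:**
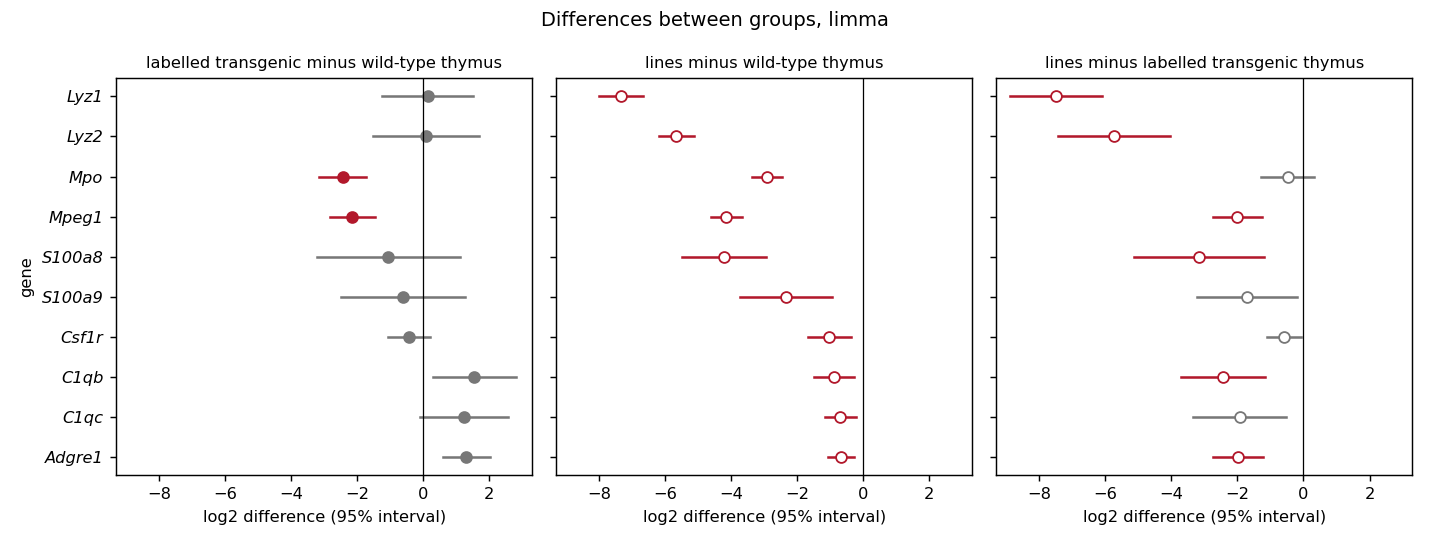
Log2 difference (x axis) of each marker gene (y axis) in the 3 comparisons, with the 95% interval from limma. Red marks an adjusted p under 0.05 and open circles mark genes undetected in 1 of the groups, for which the fitted difference is no bound. Mpo and Mpeg1 are red in the thymus comparison, all 10 genes in the comparison of lines with wild-type thymus, and 6 in the comparison of lines with labelled transgenic thymus.

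The order of the 3 groups could thus be given gene by gene. For Mpeg1 wild-type thymus was highest, labelled transgenic thymus followed and the lines were lowest, and no neighbouring groups overlapped. For Mpo wild-type thymus was highest, and the labelled transgenic arrays and the lines overlapped. For Lyz1, Lyz2, S100a8 and S100a9 the thymus groups overlapped and both lay above the lines. For C1qb, C1qc and Adgre1 the lines were called lower than wild-type thymus. The wild-type means lay under the lowest signal detected on the line arrays, so that order is uncertain. For these genes labelled transgenic thymus had the highest mean, and its difference from wild type did not pass the test. Csf1r followed the order of Mpeg1 by its values, and of its steps only that from wild type to the lines was called.

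Genes whose centred log2 profile over the 9 arrays lay closest to each member's were found among all genes tested, for members with a range above 2 log2 units. Mpeg1 had the closest companions, the MHC class II loading gene H2-DMb1 (root mean square difference 0.21), Tusc1 (0.21) and Ly86 (0.25), the last a partner of a Toll-like receptor homologue. C1qc lay closest to Fcna, a ficolin of macrophages (0.31), Retnla (0.31) and C4a (0.34). C1qb lay closest to Ednrb (0.36), the complement gene C4a (0.40) and Saa3 (0.44). Adgre1 lay closest to the platelet factor Pf4 (0.32), Fam131a (0.32) and the lipase Lpl (0.35).

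Mpo lay closest to Gpr174 (0.36), the DNA sensor Aim2 (0.39) and Myl1 (0.41). The nearest profiles of the S100 genes and lysozymes were looser, at 0.52 or more. S100a9 lay closest to Ltf, lactoferrin of neutrophil granules (0.52), then Tlcd2 (0.72) and Zbtb8a (0.74), and S100a8 to Fgf13 (0.59), Smad1 (0.77) and Bcl2l2 (0.94). Lyz1 lay closest to Dnajc6 (0.74), the cytotoxic granule gene Nkg7 (0.78) and Trgv4 (0.82), and Lyz2 to Sema4a (0.70), Pde4b (0.73) and Ifi47 (0.77). Csf1r, with a range of 1.74, was left out by the rule.

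Other myeloid genes were taken from lists of 63 genes, of which 59 had a probe on the platform and 28 could be tested. Of the 31 others, 13 were detected on 0 arrays and 18 on 1 or 2. Defining myeloid genes were among the 13, including the integrin gene Itgam (CD11b), the transcription factor gene Cebpa, the granule protease gene Ctsg, the chemokine receptor gene Cxcr2, the Fc receptor gene Fcgr1 and the macrophage genes Mertk, Siglec1 and Msr1. Spi1, which encodes PU.1, was detected on 1 wild-type array only, and C1qa, the third C1q chain, on 1 labelled transgenic array only.

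In labelled transgenic against wild-type thymus 1 of the 28 rose and 5 fell, with a median difference of -0.40, where 2.29% of all genes tested rose and 2.38% fell. Axl, a receptor through which macrophages take up dying cells, rose by 1.47 ± 0.24 (SE; limma adjusted p = 0.0164). That call was lost under 6 of 16 alternative settings: with median scaling, with the mean of kept probes (0.73, adjusted p = 0.0878), with the replicate block and without any 1 of the wild-type arrays (0.0513 to 0.0981). Csf2ra, the GM-CSF receptor chain, fell by 2.11 ± 0.34 (0.0161), and Fcer1g, the signalling chain of Fc receptors, fell by 2.01 ± 0.28 (0.00886). Csf2ra was detected on only 1 labelled transgenic array, and without background correction its difference was -0.87. Lgals3, galectin-3, fell by 1.93 ± 0.27 (0.00856) and Irf8, a transcription factor of monocytes and dendritic cells, by 1.88 ± 0.34 (0.0240). Chil3, a chitinase-like protein of granulocytes and activated macrophages, fell at least 1.86-fold (0.0316). Without background correction its fold was 1.36. By list, 2 of 6 regulators and receptors fell, 1 of 6 neutrophil genes fell, 1 of 5 macrophage surface and complement genes rose, and 2 of 11 genes of the phagocyte machinery fell. The number of calls, 6 with all arrays, was 2 without wild-type array 1 or 3 and 1 without wild-type array 2. Of the 10072 genes tested, 114 rose and 99 fell without wild-type array 1. Without wild-type array 2 these counts were 82 and 72, and without wild-type array 3 they were 94 and 77. Fcer1g kept its call under all 16 alternative settings, Csf2ra and Lgals3 under 13, Irf8 under 10 and Chil3 under 5.

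In the lines against wild-type thymus 1 of the 28 rose and 14 fell, with a median difference of -1.01, or -0.76 with bounds, where 12.1% of all genes tested rose and 12.4% fell. Of the 28, 17 were undetected on every line array and so passed the detection filter through thymus arrays alone. Their falls are no evidence about myeloid genes in general. Fcer1g fell at least 23.4-fold (adjusted p = 1.43e-05), Ncf4, a subunit of the phagocyte oxidase, at least 11.9-fold (2.07e-05) and Axl at least 6.73-fold (5.11e-05). Csf2ra fell at least 4.01-fold (8.96e-05) and Tyrobp, a signalling adaptor of myeloid and NK cells, at least 3.77-fold (0.000292). Hmox1, the haem-degrading oxygenase, rose at least 6.22-fold (0.000914), and it was detected on every line array and on 0 thymus arrays. Over the 15 alternative settings the smallest fitted differences were -3.01 log2 units for Fcer1g, -2.19 for Ncf4 and -1.61 for Axl. They were -1.10 for Csf2ra, -0.96 for Tyrobp and 1.31 for Hmox1, so these bounds do not hold under every setting. The calls were kept under all of them. Not every gene of these lists was absent from the lines: the sum of the 28 linear intensities was 8191 to 9544 on the lines against 12074 to 13647 in wild type, and 6 of the 28 were detected on all 3 line arrays. On the lines the highest means were those of Cyba (log2 intensity 11.90), Gfi1 (11.03) and Slc11a1 (9.64), which weigh most in the sum. The 17 undetected genes entered it at background level.

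In the lines against labelled transgenic thymus 1 of the 28 rose, Hmox1 at least 5.93-fold (adjusted p = 0.00282), and 6 fell, with a median difference of -0.66, or -0.30 with bounds. Of all genes tested 7.23% rose and 8.45% fell. The same 17 genes, undetected on every line array, passed the filter through thymus arrays alone. Axl fell at least 18.7-fold (0.000237), Ncf4 at least 7.57-fold (0.0248), Fcer1g at least 5.79-fold (0.00152), Tyrobp at least 2.16-fold (0.00947) and Lgals3 by 2.85 ± 0.66 log2 units (0.0339). The sixth was Cd14, a receptor for bacterial lipopolysaccharide, at least 1.21-fold lower (0.0449). Over the 15 alternative settings the smallest fitted differences were -2.57 log2 units for Axl, -1.82 for Ncf4 and -1.43 for Fcer1g. They were -0.56 for Tyrobp and 1.35 for Hmox1, so the bounds of these genes do not hold under every setting. Ncf4 lost its call under 6 of the 15 and Lgals3 under 7. Lgals3 was detected on 1 line array only.

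**Figure D4:**
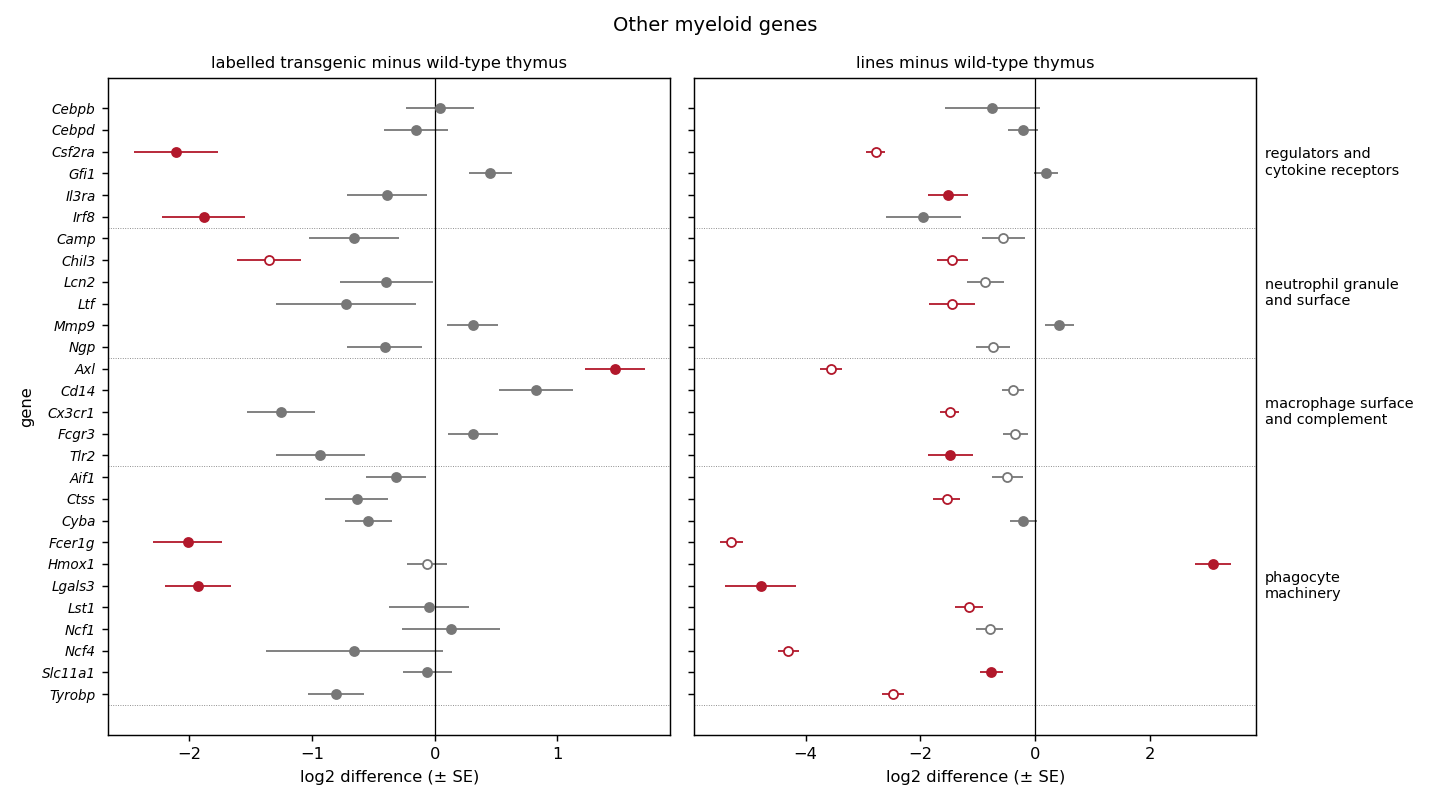
Log2 difference with its standard error (x axis) for the 28 tested genes of the other myeloid lists (y axis), labelled transgenic minus wild-type thymus on the left and lines minus wild-type thymus on the right, on different x scales. Red marks an adjusted p under 0.05 and open circles mark genes undetected in the first-named group. Axl is the 1 red gene right of 0 on the left, and Hmox1 the 1 on the right.

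Markers of other cell types moved on the same arrays, and several of the genes above are not used by macrophages and granulocytes alone. In labelled transgenic against wild-type thymus, where 2.38% of all genes tested fell and 2.29% rose, 5 of 9 measured genes of MHC class II and dendritic cells fell, among them H2-DMa (-2.59 ± 0.43, adjusted p = 0.0171) and H2-DMb1 (-1.86 ± 0.32, 0.0194). Their summed linear intensity was 16545 to 19357 on the wild-type arrays, 9261, 5149 and 2247 on labelled transgenic arrays 1, 2 and 3, and 358 to 896 on the lines. Among the labelled transgenic arrays this is also the order of Mpeg1 and of the B cell sum (1521, 1231 and 499), while on the wild-type arrays the sum was highest on array 1, where Mpeg1 was lowest. Of 8 NK and cytotoxic genes 4 fell, including Tbx21 (-2.08 ± 0.26, 0.00593) and Klrd1 (-2.48 ± 0.38, 0.0119), and their sum was 5939 to 6978 in wild type, 2658 to 4854 on the labelled transgenic arrays and 525 to 565 on the lines.

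Mast cell and progenitor protease Cpa3 rose by 3.48 ± 0.22 (0.000726), 1 of 2 measured genes of its list, whose sum was 1225 to 1612 in wild type and 13915 to 20056 on the labelled transgenic arrays. Of 10 T cell genes 2 fell, Rag1 (-1.54 ± 0.21, 0.00804) and Ptcra (-2.43 ± 0.41, 0.0173), with sums of 65573 to 72549 in wild type and 56081 to 65462 on the labelled transgenic arrays. Of 4 thymic epithelial genes 1 fell, Cldn4 (-1.82 ± 0.25, 0.00763). Of the 3 labelled transgenic arrays, only 2 detected Ptcra, 2 detected Tbx21 and 1 detected Cldn4. Among 7 B cell, 4 fibroblast and endothelial and 2 erythroid genes 0 were called in limma. Of the labelled transgenic arrays, array 3 had the lowest sums of the MHC class II and dendritic genes (2247), the B cell genes (499) and the NK genes (2658). The B cell sum was 1695 to 2609 in wild type, above every labelled transgenic array, and the erythroid sum was 45.2 to 104 and 75.8 to 585. The part of these cell types in the differences of the 10 markers was not tested.

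The sum of the 10 markers themselves was 4576 to 7719 on the wild-type arrays and 14795, 4486 and 3850 on labelled transgenic arrays 1, 2 and 3. On the lines it was 229 to 238, where all 10 were undetected, so that line sums of the markers are background signal. The lysozymes alone made up 93.9% of the sum on labelled transgenic array 1 and 63.9% to 85.99% on the other thymus arrays. Without Lyz1 and Lyz2 the sum of the remaining 8 was 1042 to 1984 in wild type, 907, 628 and 1391 on labelled transgenic arrays 1, 2 and 3, and 188 to 194 on the lines, so array 1 was highest through the lysozymes and lay below every wild-type array without them. In the lines, against wild type, where 12.4% of all genes tested fell, 8 of 9 genes of MHC class II and dendritic cells, 7 of 8 NK genes and 3 of 7 B cell genes were called lower, and 3 of 10 T cell genes, among them Bcl11b (-1.26 ± 0.21, 0.00829) and Cd3e (-0.85 ± 0.17, 0.0154). The remaining gene of MHC class II and dendritic cells was called higher, by 0.73, where 12.1% of all genes tested rose. Of 4 thymic epithelial genes 1 was called higher and 1 lower, and of 2 erythroid genes 1 was called higher. Undetected on every line array were 6 of the MHC class II and dendritic genes, 6 of the NK and 4 of the B cell genes. Such genes passed the filter through thymus arrays alone, so these counts describe the listed genes only.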

How the data were processed

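The authors deposited non-normalized intensity values and a detection p-value for 45281 probes on 9 arrays, per the file headers, and a normalized log2 table. The submitters' processing notes name BeadStudio and limma, without versions or settings. From the intensities, neqc (limma 3.58.1, R 4.3.3, offset 16) corrected the background through the detection p-values, normalized by quantiles and took log2 values. This offset compresses differences near background. The result correlated with the authors' log2 table at r = 0.999. Probes detected (p under 0.05) on at least 3 arrays were kept (19490), and each gene took its kept probe with the highest mean. Of all probes 34885 have 1 symbol, 18 several and 10378 none.

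Each comparison was fitted with limma (lmFit, eBayes) on its own 6 arrays, two-sided, with Benjamini-Hochberg adjustment over 10072 genes and calls at adjusted p under 0.05. The scripts were tested on simulated data. No slide or scan information was used. The precision rests on 3 arrays per group. Samples with the same replicate number did not stand out. Their deviations from the group means correlated at -0.15 to 0.16, against -0.33 to 0.33 for different numbers. Whether another matching pairs the samples was not tested.

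The members and the lists were chosen with earlier results of these data known. The 10 members and the 3 nearest profiles of each member were named. Per comparison, up to 5 called genes in each direction of the other myeloid lists were named as well. Of each other list, up to 2 called genes were named in the thymus comparison. In the lines against wild type this was done for the T cell list only (Bcl11b and Cd3e). Cd14, Itgam, Cebpa, Ctsg, Cxcr2, Fcgr1, Mertk, Siglec1, Msr1, Spi1, C1qa, Cyba, Gfi1, Slc11a1, Xist and Eif2s3y were chosen after their values were seen. Alternatives were background correction, offset, scaling, the authors' log2 values, the filter, the mean of kept probes, 1 fit of all arrays, the replicate block and leaving out each array.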

Additional observations from a re-analysis of the deposited data

Results flagged for a closer look

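Probes that the comparisons did not use carried signal on labelled transgenic arrays while being undetected on every wild-type array. The second kept Adgre1 probe (ILMN_2847787) reached a log2 intensity of 5.96, on labelled transgenic array 1. A Lyz1 probe that did not pass the detection filter (ILMN_1247933) reached 6.67, and another (ILMN_2736867) reached 6.59, both on the same array, where the used Lyz1 and Lyz2 probes were also highest. The latter Lyz1 probe, ILMN_2736867, was also detected on labelled transgenic array 2, at 5.59. Groups of 3 arrays were too small for a test of outlying arrays.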

How the results depend on the processing

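For members called, the thymus comparison gave 2 and ranged from 1 to 4 when 1 array was left out, the lines against wild type gave 10 (5 to 7) and the lines against labelled transgenic thymus 6 (4 to 7). For other myeloid genes the counts were 6 (1 to 6), 15 (11 to 14) and 7 (4 to 7). The share of all genes called was 4.68% (1.53% to 5.45%), 24.5% (9.66% to 29.6%) and 15.7% (4.41% to 14.5%). Against wild type, 5 members were called in the lines with no background correction, with an offset of 50 and with the replicate block. Other myeloid genes called in the lines against labelled transgenic thymus were 4 with no detection filter and 11 with all 9 arrays in 1 fit. Of all genes, that fit called 2.98% in the thymus comparison and 27.7% in the last, and the replicate block 2.91%, 13.9% and 6.46%. The replicate numbers were not shown to pair the samples. With no detection filter, which tests 19057 genes, the shares were 1.95%, 13.2% and 7.93%. Median scaling moved the median of all genes to 0.13, 0.27 and 0.13, and higher calls in the lines from 49.4% to 67.0% against wild type, and from 46.1% to 54.6% against labelled transgenic thymus. Uncalled thymus differences changed sign: Lyz1 to -0.53 without labelled transgenic array 1, -0.14 without wild-type array 1 and -0.97 with labelled transgenic array 3 alone, Lyz2 to -0.80, -0.05 and -0.74, S100a9 to 0.022 without wild-type array 2 and 0.95 with array 3 alone, and, also with array 3 alone, S100a8 to 1.02 and C1qc to -0.056. Over the leave-one-out fits Lyz1 ran from -0.53 to 0.69, Lyz2 from -0.80 to 0.57 and S100a9 from -1.40 to 0.022. Array 3 alone, the bounds by setting and the sum without lysozymes were chosen after seeing the data. Mpo kept its thymus call in all 16 settings (highest adjusted p = 0.0410) and Mpeg1 in 14. Fewer arrays apart, the cause was not tested. Signal near background limits C1qb, C1qc, Csf1r and Adgre1.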
